A study of Mus musculus with 12 samples.

Results

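Plasma cell genes were followed in single-cell libraries of the mouse aorta. The set held 10 of the 32245 genes listed in the 4 gene expression matrices. These were Jchain, Mzb1, Xbp1, Sdc1, Prdm1, Irf4, Derl3 and the heavy chain constant genes Igha, Ighg2b and Ighg2c. Each gene was measured in every library, in cells selected on at least 5 Jchain UMIs (unique molecular identifiers, 1 per captured transcript) and called Jchain-high below, and in B cells and stromal cells set apart by markers. The genes and the Jchain limit were chosen by measured levels of these same libraries, so their levels are given as a description and carry no test.

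All groups were labelled as ApoE-/- mice, which lack the lipid carrier apolipoprotein E, and the study describes them as male C57BL/6J mice, 8 weeks old when feeding began, that were kept on their diets for 24 weeks. The library labelled Healthy came from mice on a normal diet with saline, and AS, the atherosclerosis model, from mice on a high-fat diet with saline. MTZ-treated mice had the high-fat diet and 25 mg/kg of the carbonic anhydrase inhibitor methazolamide (spelled methoxazolamide in the labels) in the last 12 weeks, and MTZ-preventive mice had the same diet and dose for all 24 weeks. Each group of 18 mice gave 1 gene expression library, from 6 aortas pooled, and 1 library of B cell receptor sequences from the same cells.

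A plasma cell is the antibody-secreting end stage of a B cell. Its transcription factors Irf4, Prdm1 and Xbp1 switch off the B cell program and enlarge the endoplasmic reticulum, where antibody is folded and assembled. Jchain links antibody units into IgM pentamers and IgA dimers, Mzb1 is an endoplasmic reticulum protein that helps antibody assembly, and Derl3 serves the removal of misfolded protein from the same compartment. Sdc1 is the surface proteoglycan CD138, by which plasma cells are commonly recognised, although epithelial and stromal cells carry it too. Igha, Ighg2b and Ighg2c encode the constant parts of IgA, IgG2b and IgG2c, which replace that of IgM by class switching.

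On GRCm38.p6, the NCBI release of the mm10 build, the annotation placed Igha at chr12:113256204-113260236, Ighg2c at chr12:113287389-113288932 and Ighg2b at chr12:113304314-113307933, all as constant regions of 1 cluster. Jchain, a protein-coding gene, lay at chr5:88519809-88527897, and Derl3 at chr10:75893398-75895941.

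The 5 heavy chain sequences below are shown because together they were carried by most Jchain-high cells. Each is the coding sequence of the third complementarity-determining region (CDR3), the part of an antibody gene that differs most between B cell clones, as read in the receptor libraries, with the codons of its conserved first cysteine and last tryptophan in capitals.
Healthy chain 1, IGHG2C, 49 cells: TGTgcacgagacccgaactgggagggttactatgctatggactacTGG
Healthy chain 2, IGHM, 23 cells: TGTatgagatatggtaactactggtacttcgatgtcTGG
MTZ-preventive chain 1, IGHM, 27 cells: TGTgctagacacgactactttgactacTGG
MTZ-preventive chain 2, IGHM, 9 cells: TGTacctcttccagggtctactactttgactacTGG
MTZ-preventive chain 3, IGHM, 7 cells: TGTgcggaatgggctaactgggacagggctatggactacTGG
The 5 sequences run from 30 to 48 bases, and none of them was found in Jchain-high cells of both libraries.

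After the study's limits on cell quality and a removal of doublets, 11121 cells remained in the library labelled Healthy, against 2160 for AS, 6796 for MTZ-treated and 14186 for MTZ-preventive, with 3789817 to 32910025 UMIs in a library and a median of 1299 to 1894 UMIs in a cell. Apoe went against a label before any result: it stood at 678 counts per 1000000 UMIs (CPM) in the library labelled Healthy and at 8.23 to 13.03 CPM in the others. Any 2 libraries shared 23 to 238 cell barcodes among the filtered cells, and no barcode was Jchain-high in 2 libraries. With 1 library per group, no difference between libraries has a replicate check. Intervals are exact 95% intervals of counts and cover counting error only, not the spread between mice or between libraries. Those of levels and ratios take UMIs as independent, which UMIs of 1 cell are not.

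Cells above the Jchain limit were found almost entirely in 2 of the 4 libraries. There were 93 among the 11121 cells of the library labelled Healthy (0.836%, Clopper-Pearson interval 0.675 to 1.02) and 63 among the 14186 of MTZ-preventive (0.444%, 0.341 to 0.568). MTZ-treated held 1 among 6796. AS held 0 of 2160, with a Clopper-Pearson upper limit of 0.171%, which is below both shares above. Counted as 1 cell per heavy chain, described further on, the shares were 0.171% in the library labelled Healthy and 0.134% in MTZ-preventive. The first of these equals the AS limit to the digits given and the last lies within it. By that count AS therefore cannot be set below either library. In AS, 2 barcodes that failed the quality limits carried 52 and 15 Jchain UMIs among 913 and 804 UMIs in all. Barcodes above the Jchain limit were removed elsewhere too, 34 in the library labelled Healthy, 14 in MTZ-preventive and 1 in MTZ-treated. Over all deposited barcodes the library labelled Healthy held 127, MTZ-preventive 77, and AS and MTZ-treated 2 each. A library's sum of a gene cannot tell fewer cells of a type from less RNA in each cell, and the number of Jchain-high cells depended on how barcodes with the same receptor were counted, as described further on.

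The Jchain level differed greatly from cell to cell. A Jchain-high cell of the library labelled Healthy held from 5 to 672 Jchain UMIs, with a median of 14, and the 11 cells with at least 100 UMIs carried 73.2% of the 5371 Jchain UMIs of the class. In MTZ-preventive the range was 5 to 1281 with a median of 17, and 8 cells carried 81.9% of 6374. Just inside the limit, 2 cells of the library labelled Healthy and 1 of MTZ-preventive had 5 UMIs. Just outside it, 5 and 0 cells had 4 UMIs. A further 70 and 129 cells, those with 4 included, had 1 to 4 UMIs.

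Over all filtered cells of a library, Jchain, the joining chain itself, stood at 196 CPM in the library labelled Healthy (interval 191 to 201) and at 198 in MTZ-preventive, against 3.96 in AS and 1.48 in MTZ-treated. The library labelled Healthy and MTZ-preventive were level with each other and far above the other 2. Of the Jchain UMIs, 98.0% in the library labelled Healthy and 97.9% in MTZ-preventive lay in Jchain-high cells, which the rule itself sets.

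For Mzb1, B cells held a larger share of the UMIs than Jchain-high cells did. Its level was 82.1 CPM in the library labelled Healthy and 37.7 in MTZ-preventive, 6.86 in AS and 7.73 in MTZ-treated. AS and MTZ-treated were alike within counting error. Jchain-high cells held 21.2% of the Mzb1 UMIs in the library labelled Healthy and 31.8% in MTZ-preventive, while B cells held 66.2% and 42.7%.

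Among the transcription factors, Xbp1, which drives expansion of the secretory compartment, did not follow the order of Jchain, with 316 CPM in AS, 249 in MTZ-preventive, 110 in MTZ-treated and 87.7 in the library labelled Healthy. Jchain-high cells held only 11.46% of its UMIs in the library labelled Healthy and 2.73% in MTZ-preventive, against 52.6% and 49.7% in stromal cells. In endothelial cells alone Xbp1 stood at 459 CPM in AS, 298 in MTZ-preventive, 127 in MTZ-treated and 120 in the library labelled Healthy, the same order as in the whole libraries.

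Irf4, needed for both B cell activation and plasma cell fate, was at 126 CPM in the library labelled Healthy, 71.6 in MTZ-preventive, 44.1 in AS and 6.58 in MTZ-treated. Jchain-high cells held 1.42% of its UMIs in the library labelled Healthy and 0.382% in MTZ-preventive, and B cells held 71.4% and 32.2%. Prdm1, which encodes the repressor Blimp-1, was low everywhere, at 7.37 CPM in the library labelled Healthy and 6.33 in AS, 3.74 in MTZ-preventive and 3.90 in MTZ-treated. Its intervals for the library labelled Healthy and AS overlap, as do those for both drug groups.

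Sdc1 lay in a narrow range, at 26.1 CPM in MTZ-treated, 25.3 in AS, 24.3 in the library labelled Healthy and 19.0 in MTZ-preventive. Stromal cells held 73.7% of its UMIs in the library labelled Healthy and 65.9% in MTZ-preventive, Jchain-high cells 4.27% and 3.20%. Most of the Sdc1 read in these aortas was thus outside Jchain-high cells. Derl3 was rare, at 3.59 CPM in MTZ-preventive, 1.72 in the library labelled Healthy, 1.32 in AS and 0.470 in MTZ-treated. Unlike Sdc1, 75% of its UMIs in the library labelled Healthy and 60.2% in MTZ-preventive were in Jchain-high cells.

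Among filtered cells, each class-switched constant gene was high in a single library or in none. Igha stood at 25.9 CPM in MTZ-preventive and at 1.06 to 1.83 CPM in the others. Ighg2c stood at 47.2 CPM in the library labelled Healthy and at 0.269 to 1.43 CPM in the others. Ighg2b was low throughout among these cells, with 4.55 CPM in the library labelled Healthy, 3.68 in MTZ-preventive, 1.85 in AS and 0.202 in MTZ-treated. Most Igha UMIs of MTZ-preventive (97.9%) and most Ighg2c UMIs of the library labelled Healthy (97.6%) were in Jchain-high cells.

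**Figure D1:**
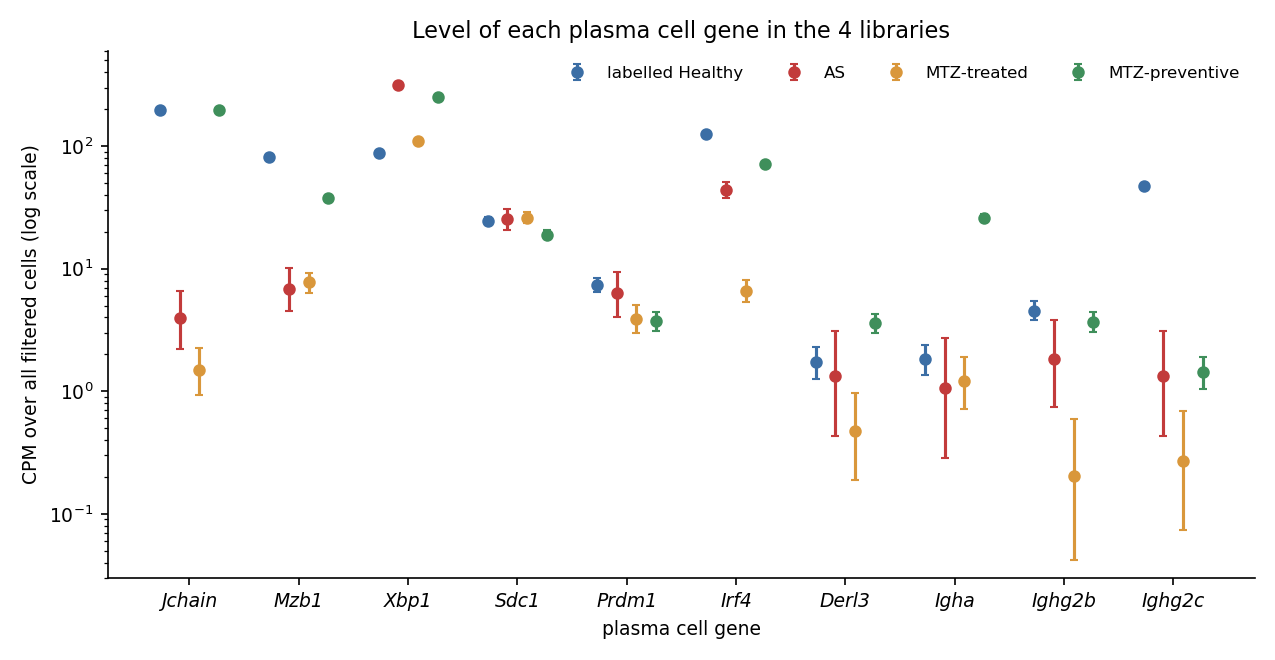
The points show the level of each of the 10 genes over all filtered cells of a library in CPM on a log axis, coloured by library, and the bars are exact Poisson 95% intervals. Jchain is near 200 CPM in the library labelled Healthy (196) and MTZ-preventive (198) and below 4 CPM in the other 2, whereas Xbp1 is highest in AS (316) and Sdc1 is nearly level (19.0 to 26.1).

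The comparison of AS with the library labelled Healthy was laid out to ask what a high-fat diet changes in the aorta. Apoe, however, stood at 11.1 CPM in AS against 678 CPM. Diet and whatever lies behind this Apoe difference cannot be told apart here. A gene was counted as past the fold where its log2(CPM + 1) differed by at least 1 and it reached 10 CPM in either library, which understates the change of low genes. Of the 6 genes of the set that reached this level, 1 was higher in AS against 9.22% of all 9373 genes that reached it, and 4 were lower against 11.9%. The higher one was Xbp1, 3.60-fold higher in AS (interval 3.36 to 3.86). Jchain was 49.6-fold lower (30.03 to 88.6), Ighg2c 35.8-fold lower (15.3 to 110), Mzb1 11.96-fold lower (8.14 to 18.4) and Irf4 2.86-fold lower (2.45 to 3.36). The ratio for Sdc1 was 1.04. Beside this, all 10 of the B cell markers were lower past the fold, with a median log2 difference of -4.00 and a summed level of 92.4 CPM in AS against 1618 CPM, none of them at 0. T cell markers were lower as well, 10 of 10 with a median of -4.13 and a summed level of 36.4 against 861 CPM. Higher in AS were 8 of 8 myeloid markers (median 3.91, 2538 against 181 CPM) and 8 of 8 neutrophil markers (4.196, 7343 against 168 CPM), and the part of these cell types in the values above was not tested. The sizes for Jchain and Ighg2c depended on which barcodes were kept: the log2 differences of -5.31 and -4.38 became -3.61 and -1.21 with a looser filter, and -3.20 and -1.05 over all deposited barcodes, still past the fold. Under these 2 settings Ighg2b was also past the fold and lower in AS (-3.48 and -2.93, against -0.96 otherwise), so that 5 genes of the set were lower. With 1 cell per heavy chain, described further on, the log2 differences were -5.01 for Jchain and -2.84 for Ighg2c. Where Jchain-high cells were left out of both libraries, Jchain differed by -0.03 and Ighg2c by 0.13 on the log2 scale, while Mzb1 (-3.08), Irf4 (-1.49) and Xbp1 (1.996) stayed past the fold.

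The comparison of MTZ-treated with AS asked what late treatment changes. Only 3 genes of the set reached 10 CPM in either library, and 2 of them were past the fold, both lower in MTZ-treated, against 5.38% of all genes. Irf4 was 6.69-fold lower (5.19 to 8.68) and Xbp1 2.88-fold lower (2.67 to 3.10), and Sdc1 was level with a ratio of 1.03. Jchain, with 15 UMIs in AS and 22 in MTZ-treated, did not reach the minimum (ratio 0.373, 0.185 to 0.774). With a looser filter or over all deposited barcodes, 4 genes were past the fold and lower, Jchain (log2 differences -2.03 and -2.26) and Ighg2c (-4.13 and -3.82) among them. Markers of other cell types moved between these libraries too. All 8 neutrophil markers were lower in MTZ-treated (median log2 difference -4.77, summed level 112 against 7343 CPM), as were 6 of 8 myeloid markers (-1.19, 1254 against 2538 CPM). Higher, against 5.16% of all genes, were 7 of 8 smooth muscle markers (1.31, 15224 against 5573 CPM), 5 of 8 fibroblast markers (1.10, 10732 against 5256 CPM) and the 4 T cell markers that reached the level (1.82, 111 against 36.4 CPM for all 10), and their part was not tested.

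The comparison of MTZ-preventive with AS, which shares the AS library with the last one, asked what treatment from the start changes. Of 6 genes that reached 10 CPM, 3 were past the fold and higher in MTZ-preventive, against 4.61% of all genes. Jchain was 49.97-fold higher (30.3 to 89.3), Igha 24.5-fold higher (9.54 to 90.2) and Mzb1 5.50-fold higher (3.74 to 8.45). Of the 852 Igha UMIs of MTZ-preventive, 2 cells held 533 and 299, so that the interval for Igha is too narrow. Xbp1 (log2 difference -0.34), Sdc1 (-0.40) and Irf4 (0.69) were not past it. Of the B cell markers, 8 of 8 that reached the level were higher too, with a median log2 difference of 2.36 and a summed level of 499 CPM for all 10 against 92.4 CPM. All 10 T cell markers were higher (median 2.79, 301 against 36.4 CPM), and all 8 myeloid markers (-4.14, 134 against 2538 CPM) and all 8 neutrophil markers (-5.47, 58.5 against 7343 CPM) were lower, against 2.81% of all genes. The part of these cell types was not tested. The log2 difference of 5.33 for Jchain became 3.42 with a looser filter and 2.96 over all deposited barcodes, and under these Ighg2c was past the fold and lower (-2.79 and -2.93, against 0.07 otherwise), so that 1 gene of the set was lower beside the 3 higher. Without Jchain-high cells the log2 difference was 0.05 for Jchain, -0.41 for Igha and 1.78 for Mzb1.

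Jchain-high cells were next set against B cells of the same library, which were gated on at least 3 of 10 B cell markers and a low Jchain count. For the 9 genes other than Jchain, the counts were the same in both libraries that held Jchain-high cells: 7 were at least 2-fold higher in Jchain-high cells, Irf4 was lower, and Prdm1 did not reach the 50 CPM asked for in either gate. Over all genes, 19.5% were that much higher and 33.9% lower in the library labelled Healthy (93 against 3012 cells), and 14.6% and 49.2% in MTZ-preventive (63 against 1067 cells). The 7 include Igha, Ighg2b and Ighg2c, which mostly rested on few cells. In the library labelled Healthy, 1 cell held 13 of 15 Ighg2b UMIs and 6 cells held the 15 Igha UMIs, while Ighg2c was in 50. In MTZ-preventive, 1 cell held 42 of 53 Ighg2b UMIs and 1 held 36 of 38 Ighg2c UMIs. Of the 834 Igha UMIs there, 533 and 299 were in 2 cells. Against stromal cells, that is fibroblasts, smooth muscle and endothelial cells together, 8 of 8 genes that reached the level were higher in the library labelled Healthy, against 8.32% of all genes, and 7 of 7 in MTZ-preventive, against 5.25%. Sdc1, Derl3, Igha, Ighg2b and Ighg2c were below 50 CPM in B cells of both libraries, as was Xbp1 in the library labelled Healthy. Such genes reached the level only through Jchain-high cells and could not be counted as lower. Against stromal cells this held for every gene counted except Xbp1. These counts are therefore a description. In the other 2 libraries there were too few Jchain-high cells for such a comparison.

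For the assembly factor Mzb1, Jchain-high cells had 1829 CPM, B cells 248 and stromal cells 10.3 in the library labelled Healthy, so that Jchain-high cells were 7.39-fold above B cells (6.66 to 8.19). In MTZ-preventive the values were 1663, 263 and 4.95 CPM, a 6.32-fold difference from B cells. Mzb1 was thus high in B cells as well. After each cell was thinned to 1000 UMIs, 41.9% of Jchain-high cells of the library labelled Healthy had a Mzb1 UMI, against 20.3% of B cells and 0.0551% of T cells, a cell type that should lack it. Fibroblasts had a share of 2.003% and smooth muscle cells one of 2.82%, above that of T cells and far below that of B cells. The unthinned shares were 49.5%, 35.1% and 0.220%, at median depths of 1847, 1941 and 2947.5 UMIs. The share of Jchain-high cells differed by heavy chain. Unthinned, a Mzb1 UMI was in 3 of 48 cells of Healthy chain 1 and in 22 of 22 of Healthy chain 2. In MTZ-preventive chain 1 it was in 5 of 26, with the brightest cell of each chain left out.

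Derl3, the degradation factor, was read mostly in Jchain-high cells. It stood at 135 CPM there against 0.815 in B cells and 0.442 in stromal cells of the library labelled Healthy, a 166-fold difference from B cells (64.9 to 541). In MTZ-preventive it stood at 299 CPM against 0.993 and 0.626. These are 36 and 71 UMIs in Jchain-high cells, and 8.60% and 14.3% of the thinned Jchain-high cells had 1.

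Xbp1 was high in Jchain-high cells but was never their own gene alone. It stood at 1055 CPM in Jchain-high cells, 36.9 in B cells and 114 in stromal cells of the library labelled Healthy, which is 28.6-fold above B cells (23.9 to 34.3) and 9.26-fold above stromal cells (8.11 to 10.55). In MTZ-preventive the levels were 943, 57.6 and 232 CPM. Sdc1 had the smallest ratio to stromal cells in the library labelled Healthy, 2.46-fold (1.63 to 3.58), with 109 CPM in Jchain-high cells, 3.75 in B cells and 44.3 in stromal cells there, and 84.2, 1.99 and 23.4 CPM in MTZ-preventive.

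Irf4 and Prdm1, both regulators of plasma cell fate, read differently from each other. Irf4 was lower in Jchain-high cells than in B cells, at 188 against 410 CPM in the library labelled Healthy (ratio 0.458, 0.339 to 0.606) and at 37.9 against 377 CPM in MTZ-preventive (ratio 0.101, 0.046 to 0.192). In MTZ-preventive, 8 of 63 Jchain-high cells (12.7%) had an Irf4 UMI, against 42.5% of B cells. Thinned to 1000 UMIs, 0 of 63 had one, which at that depth allows a share of up to 5.69%, against 27.3% of B cells. Prdm1 stood at 48.8 against 6.20 CPM in the library labelled Healthy and at 25.3 against 5.46 CPM in MTZ-preventive, below the level asked for in both. Its values rest on 13 and 6 UMIs in Jchain-high cells.

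The constant genes separated the libraries. In Jchain-high cells of the library labelled Healthy Ighg2c stood at 4837 CPM, Igha at 56.3 and Ighg2b at 56.3, and in those of MTZ-preventive Ighg2c stood at 160, Igha at 3512 and Ighg2b at 223. In B cells none of these was above 5.96 CPM. Ighm, the constant gene of IgM and not a member of the set, was the highest heavy chain constant gene in both libraries, at 22697 and 22545 CPM in Jchain-high cells against 637 and 433 in B cells. Of the other immunoglobulin constant genes, 5 of 7 that reached 50 CPM were at least 2-fold above B cells and 1 below in the library labelled Healthy, and 4 of 6 and 1 in MTZ-preventive. Over all genes, 19.5% were higher and 33.9% lower in the former, and 14.6% and 49.2% in the latter. The lower one was Ighd, the constant gene of IgD on resting B cells, at 11.3 against 183 and 8.42 against 105 CPM, while the lambda light chain gene Iglc1 stood at 4278 against 38.2 CPM in MTZ-preventive.

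**Figure D2:**
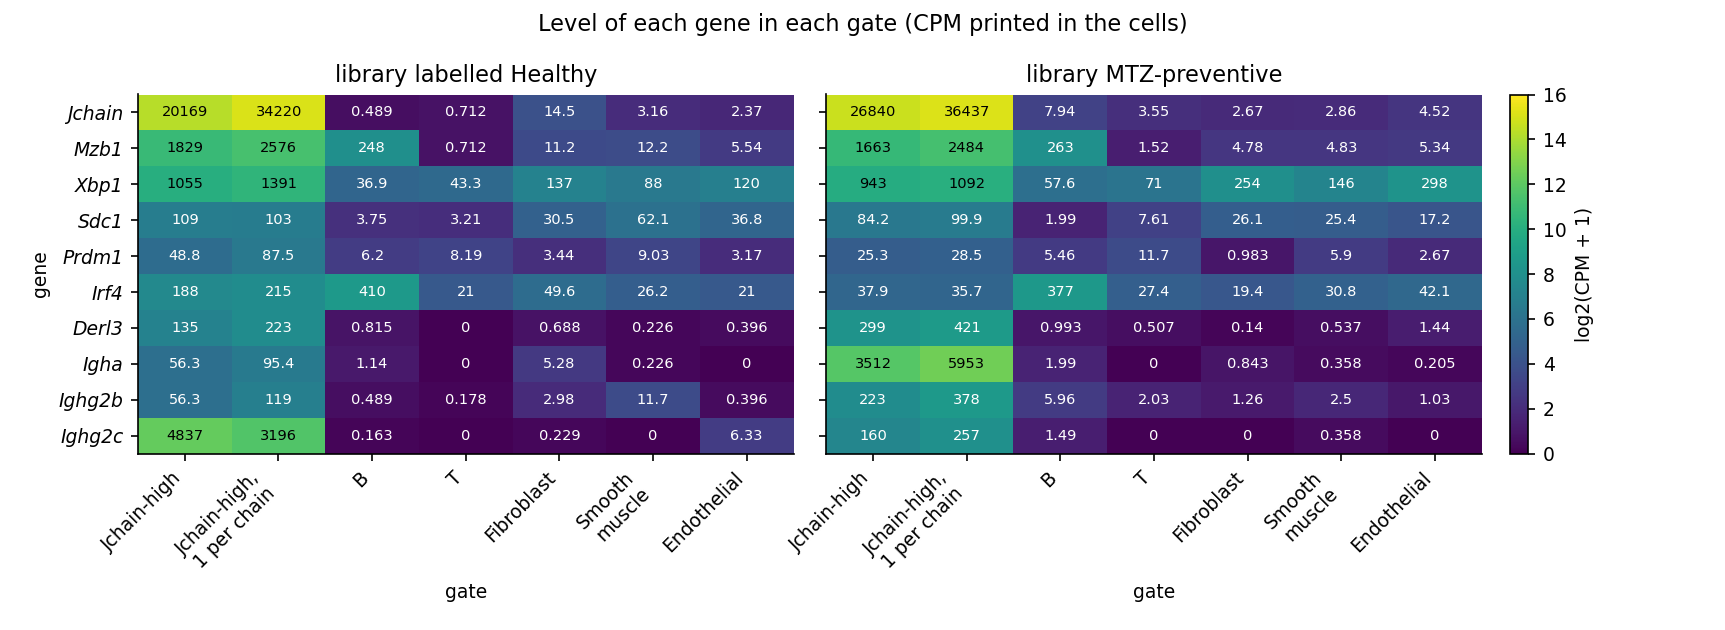
Each square gives the level of a gene (10 lines) in a gate (columns) of the library labelled Healthy and of MTZ-preventive, printed in CPM and coloured by log2(CPM + 1), with the 3 stromal gates apart and Jchain-high cells also counted as 1 per heavy chain. All genes but Irf4 are highest in the Jchain-high columns, and Irf4 is highest in B cells (410 and 377 CPM against 188 and 37.9).

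Other genes of the antibody factory were higher together in Jchain-high cells than in B cells, and fewer of them were above stromal cells. Of 25 genes of the secretory pathway, which carry new protein into and through the endoplasmic reticulum, 20 were at least 2-fold above B cells in the library labelled Healthy and 18 in MTZ-preventive, and none was that much lower. Their median log2 difference was 2.13 and 1.38, beside -0.55 and -0.98 over all genes, of which 19.5% and 14.6% were that much higher. Against stromal cells only 12 of the 25 were at least 2-fold higher in the library labelled Healthy (median log2 difference 0.94). In MTZ-preventive it was 8 of 25 (0.67), beside 8.32% and 5.25% of all genes, and none was that much lower in either library. The highest were Fkbp11, a folding enzyme (165 against 3.26 CPM in the library labelled Healthy), and Txndc5, a disulfide isomerase (898 against 48.8 CPM). Dad1, a subunit of the glycosylation enzyme complex, was level in the library labelled Healthy at 518 against 527 CPM.

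The unfolded protein response, which matches folding capacity to load, was divided. Of 22 of its 25 listed genes that reached the level, 14 were above B cells and 3 below in the library labelled Healthy (median log2 difference 1.66). In MTZ-preventive it was 11 and 3 (0.89). Over all genes, 19.5% were higher and 33.9% lower in the former, and 14.6% and 49.2% in the latter. Against stromal cells 13 of 21 were higher in the library labelled Healthy and 11 of 21 in MTZ-preventive, with none lower. Of all genes, 8.32% and 5.25% were higher than in stromal cells. Creld2, an endoplasmic reticulum chaperone (244 against 22.8 CPM), Edem2, which marks misfolded glycoproteins (143 against 15.7), and Pdia4, a disulfide isomerase (368 against 41.4), led in the library labelled Healthy. The stress genes Atf4 (255 against 534 CPM), Dnajb9 (150 against 390) and Ddit3 (30.04 against 109) were the lower ones there, and the same 3 were lowest in MTZ-preventive.

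B cell identity genes were lower without exception. All 18 that reached the level in the library labelled Healthy and all 17 in MTZ-preventive were at least 2-fold lower, with median log2 differences of -3.12 and -4.56. Of all genes, 33.9% and 49.2% were that much lower. Cd74, the chaperone of MHC class II, stood at 4893 against 22564 CPM in the library labelled Healthy, and Pax5, the factor that maintains B cell fate, at 15.0 against 138 CPM. In MTZ-preventive, Pax5 had 0 UMIs in Jchain-high cells.

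Among survival and homing receptors, 3 of 9 that reached the level were higher and 1 lower in the library labelled Healthy, beside 19.5% and 33.9% of all genes, and 2 of 6 and 1 in MTZ-preventive, beside 14.6% and 49.2%. Tnfrsf17, the receptor BCMA through which plasma cells receive survival signals, had 24 and 16 UMIs in Jchain-high cells and 0 in B cells. Set against a floor of 3 UMIs over all B cells of the library, this was at least 184-fold and at least 45.2-fold higher. Slamf7, a surface receptor of plasma cells, stood at 105 against 45.7 CPM in the library labelled Healthy and at 152 against 38.7 CPM in MTZ-preventive. Cxcr4, the receptor for a bone marrow homing signal, was lower at 18.8 against 138 and 4.21 against 125 CPM. Of 12 cell cycle genes only 1 reached the level, and it was not past the fold.

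The label was set beside markers. Of 12 plasma cell markers, 10 of the 11 that reached the level, Jchain included, were higher than in B cells in each library and 1, Irf4, was lower. Over all genes, 19.5% and 14.6% were higher and 33.9% and 49.2% lower. Jchain selected the cells, and Mzb1, Xbp1, Sdc1, Prdm1, Irf4 and Derl3 on this list belong to the set, chosen by levels in these libraries. The count is therefore a description and no check of the label. Plasmacytoid dendritic cells can also carry Jchain and Irf4's relative Irf8, and their defining markers Siglech and Klk1 had 0 UMIs in Jchain-high cells of both libraries, while Irf8 was below B cells (log2 difference -2.02 and -4.25). Of the 10 markers of these cells, 4 reached the level in each library, with 2 higher and 1 lower in the library labelled Healthy (median log2 difference 1.03) and 1 and 1 in MTZ-preventive (0.10). Ly6c2, which plasma cells also carry, was the one higher in both, at 646 against 29.7 and 897 against 17.4 CPM, and Bst2, a surface protein of many cell types, was at 383 against 122 CPM in the library labelled Healthy. Markers of stromal cells were read as well: 7 of 7 fibroblast markers that reached the level were higher than in B cells in the library labelled Healthy (median log2 difference 6.25), and 7 of 7 smooth muscle markers in MTZ-preventive (3.81). B cells, unlike Jchain-high cells, were gated to hold few UMIs of other classes. The gate thus partly set these counts, which are a description. Because many of its cells held stromal marker UMIs, as described further on, the class is called Jchain-high and not plasma cells.

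The genes with the highest ratio of Jchain-high to B cells, among those with at least 200 CPM in Jchain-high cells, were of mixed origin in the library labelled Healthy. After Jchain and Ighg2c came Slpi, a secreted protease inhibitor (995 against 0.489 CPM), Lrg1 (744 against 0.489), Prg2 (402 CPM, and 0 UMIs in B cells), Nts, Plvap, Vwf, Aqp1 and Plpp1. Plvap and Vwf are genes of endothelial cells. With 1 cell per heavy chain, as explained further on, Slpi and Prg2 stayed among the first 10, the endothelial genes did not, and Ighg3, Derl3, Ighm, Fkbp11, Ccl5 and Tmem176b took their places. In MTZ-preventive Jchain and Igha were followed by Derl3, Iglc1, Slpi, Ighm, Ly6c2, Eaf2, Emp1 and Ighg2b, so that Slpi was among the first 10 in both libraries.

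The genes whose levels moved most like Jchain over 24 gates of the 4 libraries were Derl3 (Pearson's r = 0.971), Tnfrsf17 (0.931), Oosp1 (0.875), Herpud1 (0.860) and Txndc11 (0.847) among 5955 genes, on log2(CPM + 1) and without immunoglobulin genes. Of the set, Mzb1 had 0.716, Xbp1 0.711, Sdc1 0.508, Prdm1 0.461 and Irf4 0.331. The gates of a library share its depth and its free RNA, and the Jchain-high gates alone set the upper end, so r is a description.

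The receptor libraries gave a measure of the same cells that the choice of cells did not use. A heavy chain was read in 91 of 93 Jchain-high cells of the library labelled Healthy and in 60 of 63 of MTZ-preventive. In the former 50 cells had an IgG2c chain (IGHG2C), 40 an IgM chain (IGHM) and 1 an IgG3 chain. In the latter 58 had an IgM chain, 1 an IgG2b and 1 an IgG2c chain. Of the heavy chains of Jchain-high cells, 44.0% were thus IgM in the library labelled Healthy (33.6 to 54.8) and 96.7% in MTZ-preventive (88.5 to 99.6). These intervals take cells as independent and are too narrow, because many cells shared a heavy chain. Of the 50 IgG2c cells, 49 carried 1 chain. By distinct chain, 14 of 17 were IgM in the library labelled Healthy and 14 of 16 in MTZ-preventive. In the former, 1 of the IgM chains, on the cell with 672 Jchain UMIs, had a CDR3 found on 329 receptor barcodes, mostly as IgG2b. The single Jchain-high cell of MTZ-treated carried an IgM chain.

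The same heavy chain recurred on many barcodes. The 91 chains of the library labelled Healthy were of only 17 kinds by CDR3 sequence, and 78 cells (85.7%) carried 1 of 4 kinds found on more than 1 cell. The chain of 48 bases shown above was on 49 cells and the chain of 39 bases on 23, together 79.1%. In MTZ-preventive 60 chains were of 16 kinds, 50 cells (83.3%) carried 1 of 6 recurring kinds, and the largest 2 kinds, of 30 and 36 bases, were on 36 cells (60.0%). Among B cells, 10 of 1420 cells with a heavy chain (0.704%) in the library labelled Healthy and 2 of 505 (0.396%) in MTZ-preventive carried a recurring one. All cells of a recurring chain carried the same light chain. Their barcodes were not near copies of each other, with a median of 12 of 16 letters different within each of the 5 chains shown.

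In the largest 2 of the 4 recurring chains of the library labelled Healthy, Jchain fell into 1 bright cell and many dim ones. The other 2 chains had 3 cells each, with 167, 61 and 48 Jchain UMIs in 1 chain and 63, 37 and 9 in the other. In chain 1, the brightest cell had 501 Jchain UMIs among 7375 and no UMI of the 24 stromal markers (8 each for fibroblasts, smooth muscle and endothelium). The other 48 cells had 5 to 18 Jchain UMIs, with a variance of 0.909 times the mean, where counting error alone gives a ratio near 1. They carried 1 to 11 fibroblast marker UMIs, with 3 or more in 43 of 48. Ighg2c followed the same split, with 324 UMIs in the brightest cell and 9 to 32 in each of the others.

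In chain 2 of that library, an IgM chain, the brightest cell had 442 Jchain UMIs among 11760 and no fibroblast marker UMI. The other 22 had 5 to 24 Jchain UMIs, 7 to 30 Ighm UMIs and 38 to 106 fibroblast marker UMIs. In each of these 22 the fibroblast marker UMIs outnumbered those of Jchain. Mzb1 had 1 to 16 UMIs in each of the 22, against 14 in the brightest cell.

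In MTZ-preventive no recurring chain of 7 or more cells had such a bright cell. In chain 1 the highest was 20 Jchain UMIs, the other 26 had 7 to 17 (variance 0.599 times the mean), and all 26 had 3 or more endothelial marker UMIs (3 to 17). In chain 2 the cells had 12 to 30, and in chain 3, where Ighm was higher at 69 to 150 UMIs in each cell, 24 to 50. Chain 3 thus lay above chain 1 without overlap, and chain 2 overlapped both. Whether barcodes with the same chain were cells of 1 clone, other cells with RNA of a plasma cell, or 1 cell read under many barcodes was not tested.

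**Figure D3:**
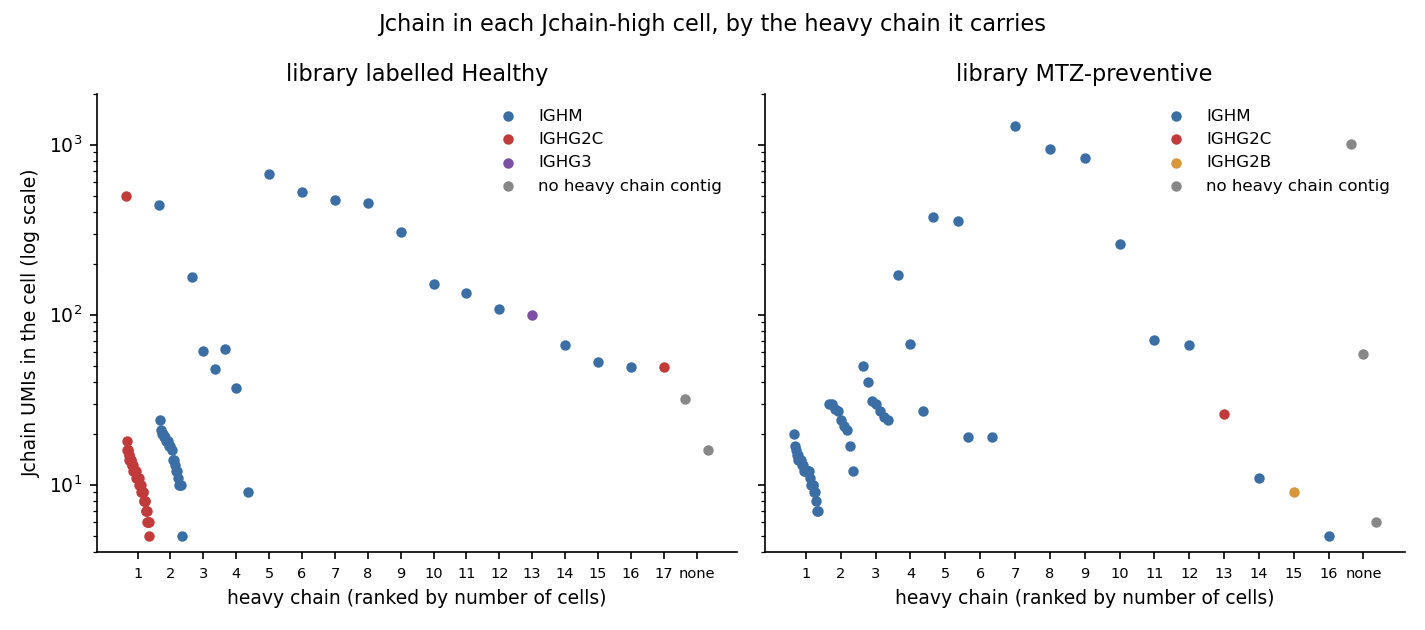
Each point is a Jchain-high cell of the library labelled Healthy or of MTZ-preventive, placed by its heavy chain (ranked by number of cells, coloured by class) on the horizontal axis and by its Jchain UMIs on the log vertical axis. In the library labelled Healthy the chains of 49 and 23 cells each have 1 cell far above the rest (501 and 442 UMIs against at most 18 and 24), whereas in MTZ-preventive the chain of 27 cells ends at 20 UMIs.

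**Figure D4:**
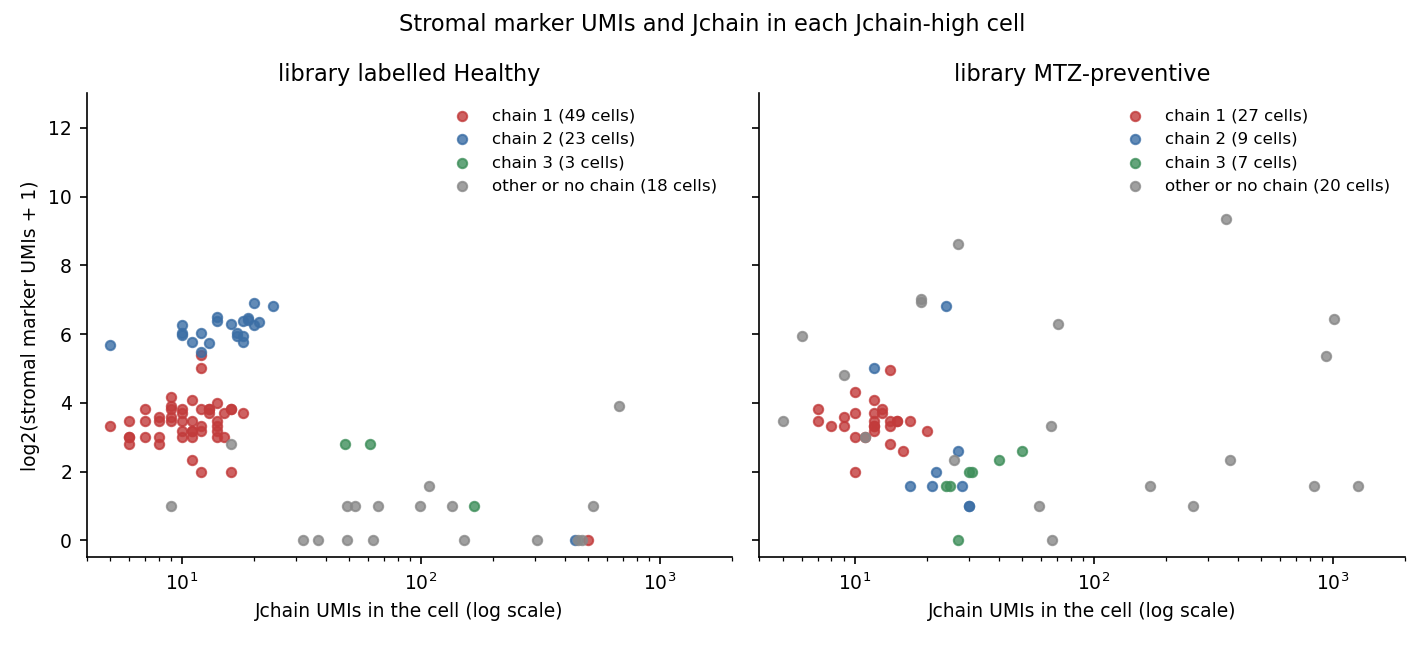
Each point is a Jchain-high cell, with its Jchain UMIs on a log horizontal axis and the log2 of its summed fibroblast, smooth muscle and endothelial marker UMIs plus 1 on the vertical axis, coloured by heavy chain. In the library labelled Healthy the chain of 23 cells forms a group of high stromal reading apart from its brightest cell, which has none, and 10 of the 11 cells with at least 100 Jchain UMIs have fewer than 3.

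Bright and dim cells differed in what else they held. In the library labelled Healthy, 1 of 11 cells with at least 100 Jchain UMIs had 3 or more stromal marker UMIs, against 73 of the 82 with fewer. In MTZ-preventive it was 4 of 8 against 45 of 55, and 1 bright cell there held 645 smooth muscle marker UMIs beside 356 Jchain UMIs. The 11 bright cells of the library labelled Healthy carried 11 different heavy chains, and their median depth was 7375 UMIs, against 1701 in the dim ones.

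Counting the cell with most UMIs for each heavy chain, and each cell without one, left 19 Jchain-high cells in each of the 2 libraries, a choice made after the data were seen. IgM then made up 82.4% of the heavy chains in the library labelled Healthy and 87.5% in MTZ-preventive, and IgG2c made up 11.8% in the former, in place of 54.9%. The genes of the set kept their direction against B cells: 8 of 9 were past the fold and higher in the library labelled Healthy, against 12.7% of all genes, and 7 of 8 in MTZ-preventive, against 14.2%. As before, most of these were low in B cells and could not be counted as lower. Prdm1 then reached the level asked for in the library labelled Healthy, at 87.5 CPM or 14.1-fold above B cells, and Irf4 was no longer past the fold there (log2 difference -0.93). No fibroblast marker then reached the level in the library labelled Healthy, while 5 of 5 in MTZ-preventive were still higher (median log2 difference 3.52). So were 7 of 7 smooth muscle markers there (3.69). What part the choice of the cell with most UMIs had in these stromal readings was not tested. For chain 2 of MTZ-preventive this choice kept a cell of 3458 UMIs with 106 fibroblast marker UMIs. It also kept the bright cell with 645 smooth muscle marker UMIs. Where a chain of MTZ-preventive was on only 1 cell, so that nothing was chosen, fibroblast marker UMIs ran from 0 to 77.

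**Figure D5:**
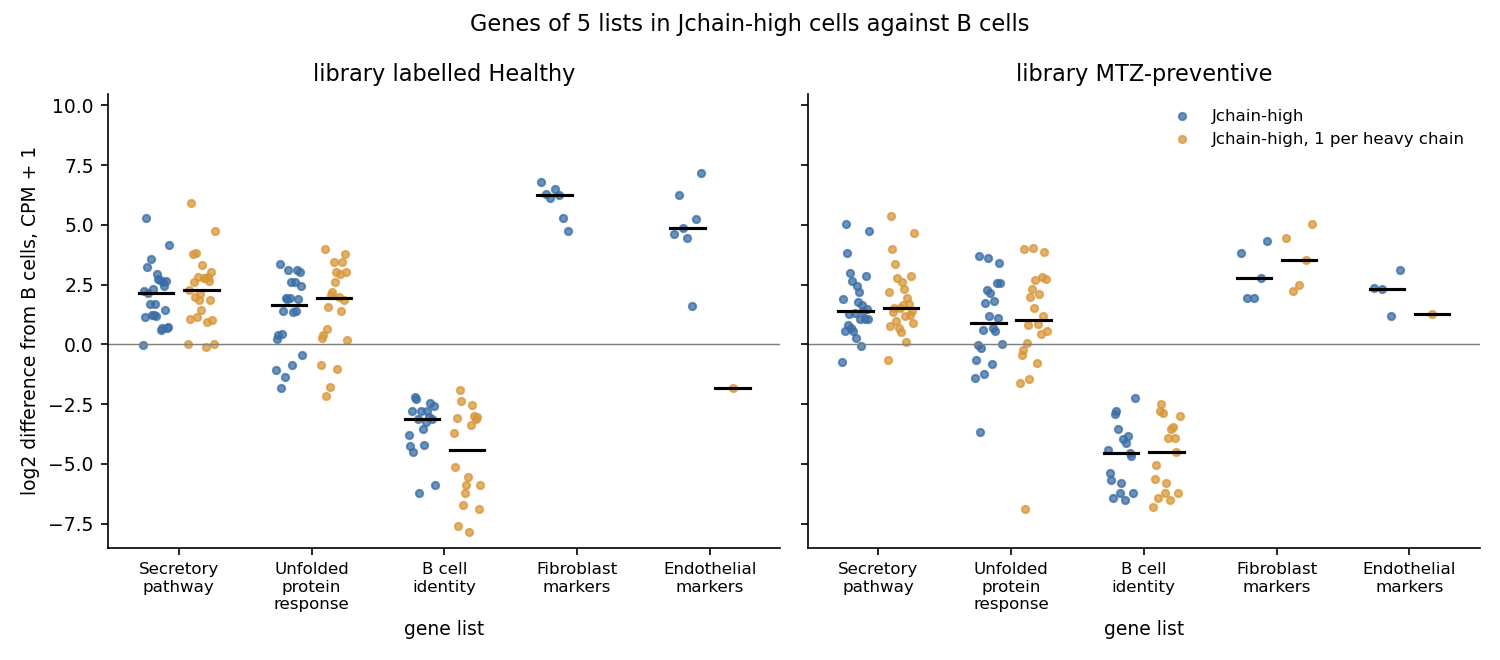
Each point is a gene of 1 of 5 lists, with its log2 difference of CPM + 1 between Jchain-high cells and B cells on the vertical axis, over all Jchain-high cells (blue) or 1 cell per heavy chain (orange), and black lines are medians. The secretory pathway stays high (medians 2.13 and 2.27 in the library labelled Healthy) and B cell identity low either way, while fibroblast markers (median 6.25) have no orange point in the library labelled Healthy.

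How far a constant gene could be traced to chains of its own class differed by gene. In the library labelled Healthy, 1316 of the 1319 Ighg2c UMIs lay in cells whose receptor was IgG2c, and 324 were in 1 cell. For Igha and Ighg2b there, 22 of 51 and 65 of 127 UMIs lay in cells with a receptor of their own class. In MTZ-preventive, 847 of 852 Igha UMIs lay in cells with no heavy chain read, and 2 such cells held 533 and 299 of them beside 1009 and 59 Jchain UMIs. Igha in that library was thus essentially a reading of 2 cells. Of its 121 Ighg2b UMIs, 42 were in 1 cell with an IgG2b receptor, 9 Jchain UMIs and 25 fibroblast marker UMIs.

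In the library labelled Healthy, part of the low level in stromal cells lay in cells with a few heavy chains. Jchain stood at 14.5 CPM in its fibroblasts, 3.16 in smooth muscle cells, 2.37 in endothelial cells, 0.712 in T cells and 0.489 in B cells, an uneven level among types. Of the 63 Jchain UMIs and 23 Igha UMIs in these fibroblasts, 44 and 21 were in 27 cells that carried a heavy chain shared by 20 or more receptor barcodes, 1 IgA chain in 26 of them, but only 1 of the 13 Ighg2b UMIs was. Of the 52 Ighg2b UMIs in smooth muscle cells, 37 were in 11 cells with such a chain, and all 16 Ighg2c UMIs in endothelial cells were in 1. In MTZ-preventive Jchain was more even, at 2.67 to 7.94 CPM over fibroblasts, smooth muscle, endothelial, T and B cells, and none of the 19, 16 and 22 Jchain UMIs in the first 3 of these was in a cell with such a chain.

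Promoters were searched because Xbp1 and Atf6 act on stress elements at the start of secretory genes. Windows from 250 bases before to 50 bases after the RefSeq start (GRCm38.p6) were given for 6 of the 10 genes and for 38 of the 50 genes in the secretory and unfolded protein response lists. The element ERSE, spelled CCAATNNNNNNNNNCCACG on either strand, was in 1 of 6 members (Derl3), in 8 of 38 list genes (21.1%) and in 37 of 27025 genes (0.137%). The core TGACGTG was in 0 of 6 members, 3 of 38 list genes (7.89%) and 2.22% of all genes. The stretches below show Derl3 and 4 list genes on the plus strand, with the fixed letters of the ERSE in capitals.
Derl3, chr10:75893231-75893271: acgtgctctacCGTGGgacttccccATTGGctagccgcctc
Hspa5, chr2:34772014-34772054: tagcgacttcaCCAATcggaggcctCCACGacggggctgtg
Creld2, chr15:88819509-88819549: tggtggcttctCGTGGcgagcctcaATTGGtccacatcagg
Pdia6, chr12:17266480-17266520: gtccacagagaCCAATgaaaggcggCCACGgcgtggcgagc
Dnajc3, chr14:118937816-118937856: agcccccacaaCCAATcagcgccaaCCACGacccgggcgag
In Derl3 and Creld2 the element lies on the minus strand and so reads in reverse. A match is a description of letters and does not show a site in use.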

How the data were processed

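Aortas of 4 groups were measured with 5' single-cell RNA and B cell receptor libraries, 1 of each per group. The authors aligned and counted reads with Cell Ranger (5.0.0 in the matrix header) and STAR on mm10, per the submitters' processing notes. The deposited matrices hold unnormalised UMI counts for every gene and barcode, and counts of UMIs per receptor contig. They held 6908 to 23963 barcodes, the range that the study gives for its high-quality cells. The study's stated limits (at least 200 genes and 1000 UMIs, a log10 ratio of genes to UMIs above 0.7, at most 10% mitochondrial and 5% red blood cell UMIs) left 2199 to 16316, and a removal of simulated-doublet neighbours (2 per cell, the top 0.8% per 1000 cells) left 2160 to 14186.

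UMIs were summed per library or gate and scaled to 1000000 (CPM). A gate needed 3 markers of its class with a UMI, 2 times the UMIs of every other class, and under 5 Jchain UMIs. No count test was run, since each group had 1 library; edgeR gave only TMM factors for an alternative. Ratios have exact conditional binomial, levels exact Poisson and shares Clopper-Pearson 95% intervals, and a level of 0 allows 3 counts. The fold is 2 on log2(CPM + 1), with a minimum of 10 CPM between libraries and 50 CPM between gates. Cells were thinned to 1000 UMIs for shares. The heavy chain of a barcode is its productive contig with most UMIs. The named genes are all 10 members, the 3 highest and 3 lowest by ratio among the lists, the 10 with the highest ratio to B cells among genes with at least 200 CPM in Jchain-high cells (set for the library labelled Healthy and repeated for MTZ-preventive), and the 5 most like Jchain among genes with at least 50 CPM in a gate. Hspa5, Pax5, Slamf7, Siglech, Klk1, Irf8, Ly6c2 and Ighm were named after their values were seen. Members, lists and limits were chosen with earlier results of these data known. The scripts were tested on simulated data. Python 3.11.15, numpy 2.4.6, pandas 2.3.3, scipy 1.17.1, scikit-learn 1.9.0, matplotlib 3.10.9, R 4.3.3 and edgeR 4.0.16 were used.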

Additional observations from a re-analysis of the deposited data

Results flagged for a closer look

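Heavy chains on many barcodes were also frequent in the receptor libraries of groups with hardly any Jchain-high cell. This stood out as a signal outside the gene expression matrices, above the library labelled Healthy by share but not by number of barcodes. In the AS receptor library 81.2% of the barcodes with a heavy chain (234 of 288, interval 76.3 to 85.6) carried a chain found on 20 or more barcodes. In MTZ-treated it was 50.8% (64 of 126, 41.7 to 59.8), against 20.7% in the library labelled Healthy (531 of 2562) and 9.03% in MTZ-preventive (100 of 1107). The shares of AS and MTZ-treated thus rest on far fewer receptor barcodes. The largest of these was an IgG2b chain on 119 barcodes in AS and an IgA chain on 35 in MTZ-treated. Both were read with few UMIs, at a median of 1 and 8 per contig. Of these barcodes 2 and 5 passed the quality limits, and their cells held 0 and 4 Jchain UMIs. In the library labelled Healthy an IgG2b chain was on 329 barcodes, of which 28 passed. Of these 28, 1 was the Jchain-high cell with 672 Jchain UMIs, whose contig of the same CDR3 was IgM. The source of these barcodes was not tested.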

How the results depend on the processing

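Of 106 values of comparisons under another setting, 90 stayed within 1.5 times the reported count or within its interval, and of 700 values for single genes 592 did so. Some of the latter could not move. Leaving out the minimum of CPM changes no single-gene value, and 1 cell per heavy chain changes none in MTZ-treated against AS. Counting 1 cell per heavy chain, a setting added after the data were seen, gave 19 Jchain-high cells in the library labelled Healthy and 19 in MTZ-preventive, and changed the share of IgM to 82.4% and 87.5% and that of IgG2c in the library labelled Healthy to 11.8%. With all deposited barcodes IgM was 55.7% and IgG2c 43.4% there, and AS and MTZ-treated had 2 Jchain-high barcodes each, as with the looser filter (2 and 2). MTZ-treated against AS then had 4 genes past the fold under the looser filter, 4 with all barcodes and 4 with no minimum of CPM. Without Jchain-high cells, 3 genes were past the fold in AS against the library labelled Healthy and 1 in MTZ-preventive against AS. 3 values turned: Ighg2c in AS over the library labelled Healthy (log2 0.13) and Igha in MTZ-preventive over AS (-0.41), both without Jchain-high cells, and Ighg2b in Jchain-high over stromal cells of the library labelled Healthy under the looser filter (-0.11, cause not tested). TMM factors, other totals and a pseudocount of 0.1 CPM kept all 10 library calls of single genes past the fold. Leaving out a replicate was not possible with 1 library per group. No paired analysis was possible because each group has 1 library. Depth limits AS most, where a count of 0 allows 0.792 CPM.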
